A study of Mus musculus with 17 samples.

Results

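Spleen granulocytes were compared with bone marrow myelo-dendritic progenitors (MDPs) of wild-type mice, 3 arrays against 3, out of 17 arrays in the series. The arrays were chosen by their titles, and every probe set with 1 gene symbol entered the comparison. The granulocytes were sorted from spleen as CD11c-CD11b+Ly6C+MCSFR- cells, where MCSFR is the receptor of macrophage colony-stimulating factor. The MDPs were sorted from the marrow of long bones as lineage-sca1-CD127-CD117+MCSFR+ cells. All animals of both groups carried the genotype label wild-type, were 6 to 10 weeks old and received no treatment that the labels name. Each array held RNA of a pool of cells from 5 mice, so 3 pools stood for 15 mice a group and the spread between single animals was not measured. Spleen macrophages of wild-type mice (CD11c-CD11b+MCSFR+, 3 pools) were used as a second mature cell type for the genes described here. The study derived profiles of mature cells in order to sort the genes that change in progenitors lacking the transcription factor IRF8 into lineage signatures, and the present comparison gives the granulocyte side of that contrast. Granulocytes and MDPs differed in tissue, sort gate and maturity at the same time, and the contributions of these cannot be told apart.

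Neutrophils, the most numerous granulocytes, arise in bone marrow from dividing myeloblasts and promyelocytes. Their granules are made in a fixed order: primary (azurophil) granules with myeloperoxidase and serine proteases at the promyelocyte stage, secondary (specific) granules with lactoferrin at the myelocyte stage, then tertiary (gelatinase) granules and secretory vesicles with membrane receptors. The mature cell has left the cell cycle, has a lobed nucleus, takes most of its energy from glycolysis, and kills microbes with granule proteins and with the oxidant made by the phagocyte NADPH oxidase. MDPs are cycling precursors of monocytes, macrophages and dendritic cells that depend on receptors such as KIT, FLT3 and the M-CSF receptor.

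Levels are the authors' log2 values from robust multi-array averaging (RMA), so that 1 log2 unit is a doubling, and they ranged from 1.69 to 13.5 with array medians of 4.33 to 4.48. Values of a gene are given for pools 1, 2 and 3 in that order, and macrophage levels as the mean ± SD of 3 pools (n = 3). A difference is the granulocyte mean minus the MDP mean, SE is its standard error from the fit, and genes with an adjusted p under 0.05 (limma, Benjamini-Hochberg over 17097 genes) are called. The granulocyte arrays correlated with each other at r = 0.959 to 0.968 and the MDP arrays at r = 0.969 to 0.980, against 0.791 to 0.861 between the groups. These correlations run over probe sets, not over replicates. Some pools stood apart. MDP pool 3 was over 2 log2 units above both other MDP pools in 106 genes, among them granulocyte, eosinophil, plasma cell and globin genes. Granulocyte pool 1 was that far above both others in 32 genes and pool 2 that far below in 24. Many of the results below are also given without one of these pools or without both.

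Of the 5 genes of the sort gates given here, Itgam and Kit followed the labels in RNA and Csf1r and Itgax did not. Ly6c1 lay well above the array medians in every granulocyte pool, and these were gated as Ly6C+. The gate given for MDPs does not name Ly6C. Itgam, which encodes CD11b, had levels of 8.21, 8.16 and 7.96 in the granulocyte pools against 2.93, 3.26 and 3.86 in the MDP pools, higher by 4.76 (SE 0.24, adjusted p = 1.9e-09) in granulocytes, with no overlap. Kit, which encodes CD117, was at 4.61, 4.13 and 5.18 in granulocytes and 7.50, 7.38 and 7.52 in MDPs, lower in every granulocyte pool, and the difference was -2.83 (SE 0.23, adjusted p = 2.2e-07). Csf1r, the gene of the M-CSF receptor that was used to sort the MDPs as positive and the granulocytes as negative, was at 7.16, 8.19 and 8.56 in the granulocyte pools against 7.40, 7.76 and 7.52 in the MDP pools. Its groups overlapped and the difference of 0.41 (SE 0.27) was not called (adjusted p = 0.23). Without granulocyte pool 1 its difference was 0.82 and passed the test (adjusted p = 0.0019). Itgax, the gene of CD11c, was at 6.94, 8.37 and 8.02 in granulocytes and 3.36, 4.25 and 3.94 in MDPs although the granulocytes were gated as CD11c-negative, a difference of 3.93 (SE 0.30, adjusted p = 8.5e-08). Spleen macrophages, gated the same way for CD11c, stood at 8.38 ± 0.21. Ly6c1, a gene of the Ly6C antigen, was at 11.03, 9.07 and 10.06 in the granulocyte pools against 10.98, 10.83 and 11.49 in the MDP pools. Its difference of -1.04 (adjusted p = 0.032) was lost without granulocyte pool 2 or 3 or MDP pool 1 or 3 (adjusted p = 0.17, 0.068, 0.055 and 0.12), and a near-identical gene, Ly6c2, was not matched to a probe set here. Ly6a and Il7r, the genes of sca1 and CD127 in the MDP gate, were also not matched to a probe set and could not be checked. RNA levels need not follow the surface protein that was gated.

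Of 17097 genes, 7720 (45.2%) were called, 3768 higher (22.0%) and 3952 lower (23.1%) in granulocytes. The pools did not overlap in 28.2% of genes on the higher side and 25.1% on the lower side. The median difference over all genes was 0.10 log2 units. Falls were larger as a rule: 3104 of the called genes were lower at least 2-fold against 1672 that were higher at least 2-fold. At 16-fold or more the order turned, with 165 genes higher and 101 lower. In such bulk samples, fewer cells of a type and less RNA per cell cannot be told apart. Between granulocytes and macrophages 31.2% of genes were called (12.8% higher and 18.4% lower in granulocytes), and between macrophages and MDPs 23.6% (11.4% higher and 12.2% lower in macrophages). The last comparison shares the MDP arrays with the granulocyte comparison. Counts of list members below are to be read against these shares of all genes. Among genes that differed from MDPs in granulocytes, 1715 were also higher and 2332 also lower in granulocytes than in macrophages.

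The largest rise was in Stfa2l1, a stefin that inhibits cysteine proteases, at 10.33, 10.46 and 10.55 in granulocytes and 2.47, 2.47 and 2.53 in MDPs. It was near the lower end of the array in every MDP pool and in macrophages, at 2.40 ± 0.13, and its difference was 7.96 (SE 0.12, adjusted p = 4.2e-15). Il1b, the gene of interleukin 1 beta, followed at 12.48, 12.74 and 12.53 in the granulocyte pools against 5.11, 4.66 and 4.34 in the MDP pools, 235-fold higher (adjusted p = 3.1e-12), while macrophages lay between at 8.58 ± 0.39. The Schlafen genes Slfn1 and Slfn4, of an interferon- and differentiation-linked family of lymphoid and myeloid cells, rose by 7.77 and 7.59 log2 units. Slfn1 was at 11.70, 12.13 and 12.04 in granulocytes, 2.74, 3.62 and 6.19 in MDPs and 10.71 ± 0.06 in macrophages. Without MDP pool 3 the difference of Slfn1 was 8.77. Asprv1, which encodes an aspartic protease, was at 11.42, 11.74 and 11.39 in granulocytes and 4.49, 4.38 and 4.35 in MDPs, and macrophages were at 5.30 ± 0.36. Cd300ld, a receptor of the CD300 family, rose by 6.96, and H2-Q10, a non-classical class I gene, was at 9.89, 10.31 and 9.80 in the granulocyte pools against 3.0, 3.24 and 2.94 in the MDP pools. The largest rises were picked only among called genes without overlap between the groups, so their separation was fixed by that choice. Of all genes 28.2% did not overlap on the higher side. Stfa2l1, the Schlafen genes and H2-Q10 have near-identical relatives, so their probe sets may read more than the named gene.

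Among the largest falls, Cnn3, the actin-binding acidic calponin, was at 2.72, 2.31 and 2.47 in granulocytes and 9.12, 9.21 and 8.90 in MDPs, a difference of -6.57 (SE 0.29, adjusted p = 5.5e-10). F13a1, the A chain of coagulation factor XIII and a gene of the monocyte lineage, was at 4.19, 4.29 and 4.30 in the granulocyte pools against 10.41, 10.52 and 10.55 in the MDP pools, and macrophages, at 10.74 ± 0.27, differed from granulocytes (granulocyte minus macrophage -6.48, adjusted p = 3.6e-12). Hadh, a mitochondrial enzyme of fatty acid oxidation, was at 4.96, 3.86 and 4.14 in granulocytes and 10.41, 9.65 and 9.97 in MDPs. C1qbp, a mitochondrial matrix protein, was at 5.60, 5.27 and 5.01 in the granulocyte pools against 11.21, 11.01 and 11.09 in the MDP pools. The largest falls were likewise picked only among called genes without overlap, as were 25.1% of all genes on the lower side, so their separation was part of the choice. Parp1, which senses DNA breaks, fell by 5.38, Psat1, of serine synthesis, by 5.17, Hacd1, of long-chain fatty acid synthesis, by 5.93, and Met, the receptor of hepatocyte growth factor, by 5.68 log2 units. Abhd14a, Bex6 and Serpinf1 fell by 6.44, 6.10 and 5.91, the last encoding a secreted serpin.

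**Figure D1:**
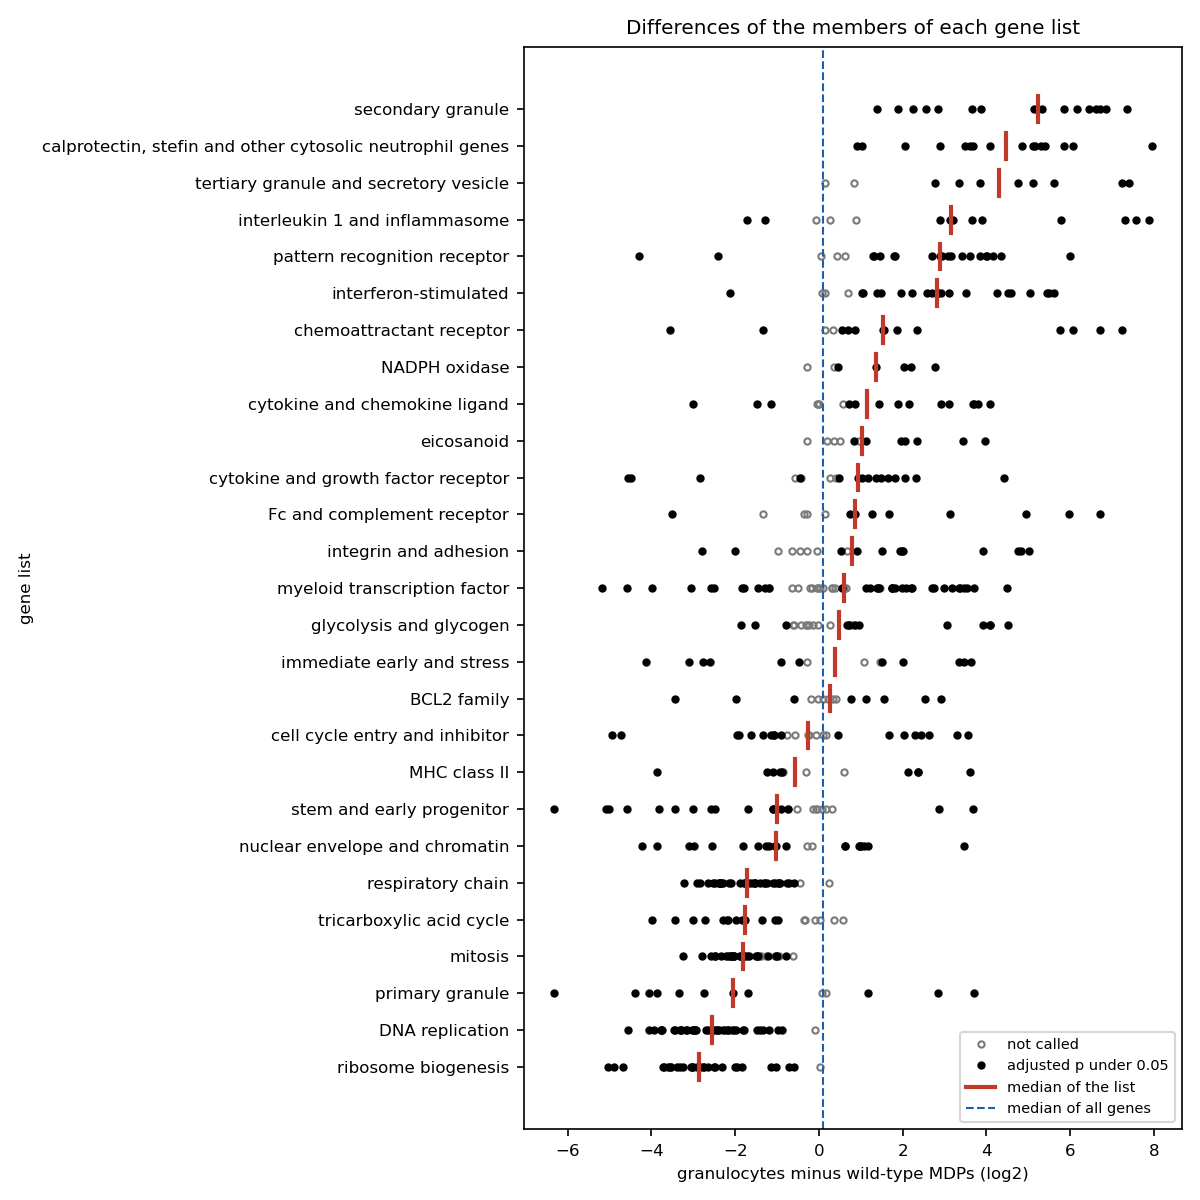
Difference in log2 level (x axis) of each measured member of 27 gene lists (y axis), ordered by the median of the list (red bar). Filled points passed an adjusted p of 0.05, open points did not, and the dashed line is the median of all genes (0.10). Secondary granule genes lie farthest to the right (median 5.23) and ribosome biogenesis genes farthest to the left (median -2.87).

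Granule genes divided by granule type. Among primary granule genes, 8 of 13 measured members were lower and 3 higher in granulocytes, with a median difference of -2.04. All 16 measured secondary granule genes were higher (median 5.23), as were 8 of 10 genes of tertiary granules and secretory vesicles (median 4.30). Of all genes 22.0% were higher and 23.1% lower.

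Ctsg, the serine protease cathepsin G, was at 5.46, 4.57 and 6.47 in granulocytes and 11.70, 11.74 and 12.06 in MDPs, a fall of 6.33 log2 units or a level 80.6-fold lower (adjusted p = 2.5e-08). Mpo, myeloperoxidase, the most abundant protein of primary granules, was at 9.09, 7.48 and 9.86 in the granulocyte pools against 12.65, 12.70 and 12.64 in the MDP pools. Its MDP pools spread over 0.06 log2 units and its granulocyte pools over 2.39, and the difference was -3.85 (SE 0.50, adjusted p = 1.9e-05). Prtn3, proteinase 3, was at 6.91, 5.11 and 6.67 in granulocytes and 10.64, 10.47 and 10.76 in MDPs, and Elane, neutrophil elastase, at 8.02, 5.67 and 7.15 in the granulocyte pools against 9.98, 9.92 and 10.96 in the MDP pools. For all 4 genes granulocyte pool 2 was the lowest of the 6 pools, and no granulocyte pool reached an MDP pool. Elane and Prtn3 were still higher in granulocytes than in macrophages, by 2.51 and 0.99 (adjusted p = 0.0016 and 0.0454). Cst7, cystatin F, which inhibits granule proteases, fell by 4.06. The risen members were Fcnb, ficolin B, at 11.16, 8.27 and 10.49 in granulocytes and 5.11, 3.92 and 9.79 in MDPs, Mgst1, a glutathione transferase, with a difference of 2.85, and Srgn, the granule proteoglycan serglycin, with 1.17. Fcnb, in which MDP pool 3 lay above the lowest granulocyte pool, lost its call without granulocyte pool 1 (adjusted p = 0.0511), MDP pool 1 (0.058) or MDP pool 2 (0.068). By contrast the 8 falls were called whichever single pool was left out.

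Ltf, lactoferrin, which binds iron, was at 12.74, 11.63 and 12.67 in the granulocyte pools against 3.98, 4.29 and 8.65 in the MDP pools. Its difference was 6.71 (SE 0.97, adjusted p = 5.2e-05), and without MDP pool 3 it was 8.21. Ngp, neutrophilic granule protein, was at 13.09, 12.23 and 12.73 in granulocytes and 3.86, 3.87 and 9.73 in MDPs, and Camp, the cathelicidin, at 13.28, 12.68 and 12.94 in the granulocyte pools against 4.50, 5.34 and 10.55 in the MDP pools. Lcn2, which captures bacterial siderophores, was at 12.78, 11.51 and 12.25 in granulocytes and 3.52, 3.20 and 7.73 in MDPs (adjusted p = 1.3e-05). In these 4 genes MDP pool 3 stood over 4 log2 units above the other MDP pools yet below every granulocyte pool. Without it the differences of Ngp, Camp and Lcn2 grew from 6.86, 6.17 and 7.37 to 8.82, 8.05 and 8.82. Chil1, a chitinase-like protein, showed no such pool, at 11.01, 9.90 and 10.35 in the granulocyte pools against 3.68, 3.80 and 3.95 in the MDP pools, and macrophages were at 3.83 ± 0.09. Mmp8, the neutrophil collagenase, was at 11.17, 10.03 and 10.03 in granulocytes and 4.41, 3.69 and 5.56 in MDPs. Macrophages also held Chil3, another chitinase-like gene, at 11.99 ± 0.08 against 12.29 in granulocytes, and Lyz2, lysozyme, at 12.43 ± 0.12 against 11.69. The difference between the mature cells was called in neither (adjusted p = 0.87 and 0.29). Leaving out MDP pool 3 raised the median difference of the list to 6.49, with all 16 members still called.

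Mmp9, gelatinase B of tertiary granules, was at 11.92, 11.82 and 11.69 in the granulocyte pools against 4.09, 4.30 and 4.84 in the MDP pools, 169-fold higher (adjusted p = 7.3e-11), and macrophages were at 4.83 ± 0.32. Adam8, a membrane protease, was at 9.79, 10.03 and 9.84 in granulocytes and 4.18, 3.80 and 4.86 in MDPs. Slc11a1, which pumps metal ions out of the phagosome, was at 9.16, 9.44 and 9.68 in the granulocyte pools against 3.77, 3.98 and 5.19 in the MDP pools, with macrophages at 8.98 ± 0.10. MDP pool 3 was the highest MDP pool in these 3 genes too, but the spread of the MDP pools was only 0.76, 1.06 and 1.41. Ptafr and Fcna were not called, at differences of 0.14 and 0.83, and without MDP pool 3 Fcna differed by 1.50 (adjusted p = 3.5e-04).

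**Figure D2:**
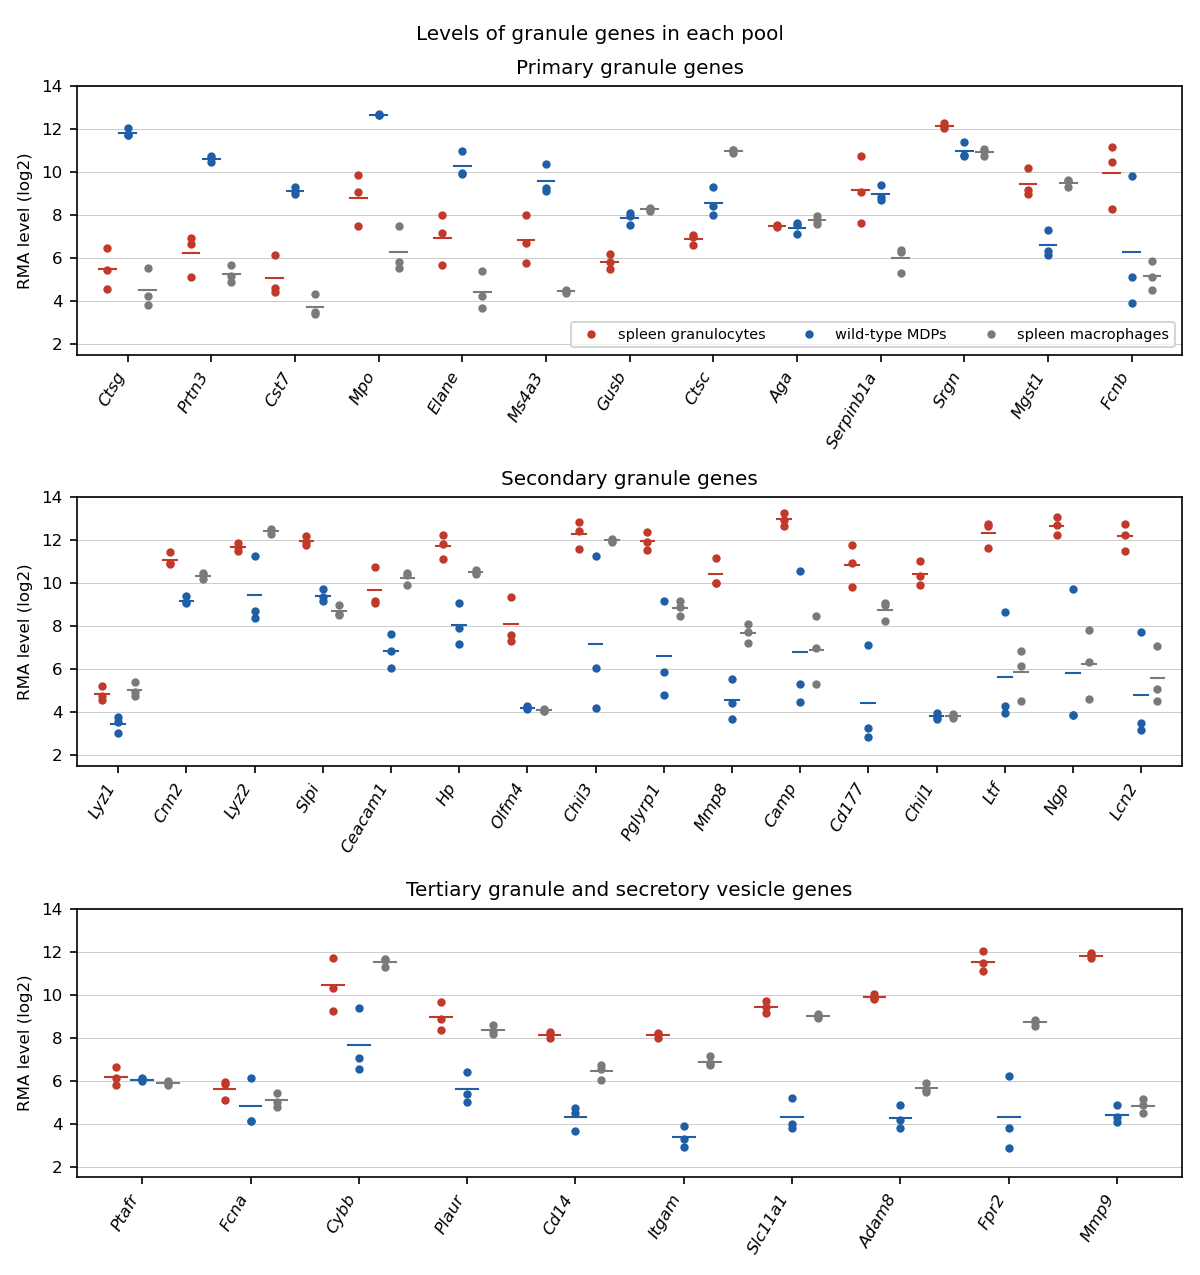
RMA level (log2, y axis) of each measured primary, secondary and tertiary granule or secretory vesicle gene (x axis) in the 3 pools of granulocytes, MDPs and macrophages (points, with the group mean as a bar). Ctsg is at 5.50 in granulocytes and 11.83 in MDPs on average and Lcn2 at 12.18 and 4.81, and a single high MDP point, pool 3, recurs in the secondary granule panel.

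Promoters of granule genes are shown because the lists moved in opposite directions. C/EBP factors drive granule genes during neutrophil maturation, and the motif TTGCNNAA was searched for them on both strands in the 250 bases before each start in RefSeq promoters (GRCm38.p6). It was in 40.0% of 15 secondary granule promoters, 15.38% of 13 primary granule promoters and 8.298% of 17065 promoters of all genes tested. Of 8 promoters of tertiary granule and secretory vesicle genes 25% held it. It was also in 9.046% of promoters of genes called higher and 7.07% of those called lower. The PU.1 motif GAGGAAGT was in 30.77% of primary granule, 13.33% of secondary granule, 0% of tertiary granule and secretory vesicle and 2.367% of all promoters. Among genes called higher its share was 3.041%, and among those called lower 2.598%. C/EBP and CCAAT matches overlapped in 43 promoters. These are descriptions of letters in a window, with few promoters per list. The C/EBP motif was also in the secondary granule genes Slpi and Lyz1, which rose less, by 2.55 and 1.39, and are not printed. Stretches of 60 bases around the C/EBP match (in capitals) of 4 secondary granule genes, 5′ to 3′ on the strand of the gene, read as follows.
Lcn2 (chr2:32387922-32387981, minus strand): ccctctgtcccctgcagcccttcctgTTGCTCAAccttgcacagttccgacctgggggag
Mmp8 (chr9:7558369-7558428, plus strand): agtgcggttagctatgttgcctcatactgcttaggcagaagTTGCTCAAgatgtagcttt
Ngp (chr9:110419748-110419807, plus strand): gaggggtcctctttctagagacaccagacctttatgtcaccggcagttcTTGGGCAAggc
Ltf (chr9:111019191-111019250, plus strand): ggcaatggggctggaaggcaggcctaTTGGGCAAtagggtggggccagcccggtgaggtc

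All 16 measured genes of a mixed list of calprotectin, stefin and other neutrophil genes were higher (median 4.47). S100a8, a subunit of calprotectin, which binds zinc and calcium, was at 13.11, 13.37 and 13.47 in granulocytes and 6.22, 3.62 and 11.87 in MDPs, and S100a9, its partner, at 13.02, 13.36 and 13.42 in the granulocyte pools against 6.37, 5.08 and 12.17 in the MDP pools. The MDP pools alone spread over 8.26 log2 units for S100a8. The differences were 6.08 (SE 1.37) and 5.39 (SE 1.27) (adjusted p = 0.0022 and 0.0030), and without MDP pool 3 they were 8.39 and 7.54. Mxd1, a repressor that opposes MYC, was at 11.94, 11.93 and 11.42 in granulocytes and 5.82, 5.60 and 6.28 in MDPs, and Padi4, which citrullinates histones in neutrophils, at 9.39, 9.77 and 9.49 in the granulocyte pools against 3.66, 3.69 and 5.82 in the MDP pools. Padi4 differed by 5.16, and by 5.88 without MDP pool 3. Hdc, which makes histamine, was at 11.65, 11.78 and 11.90 in granulocytes and 5.87, 6.14 and 7.99 in MDPs and was at 5.20 ± 0.45 in macrophages, lower than in MDPs (difference -1.47, adjusted p = 0.038).

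Receptors for chemoattractants were higher for 11 and lower for 2 of 15 measured genes (median 1.53). Fpr2, a receptor of formylated bacterial peptides, was at 12, 11.09 and 11.48 in the granulocyte pools against 2.86, 3.80 and 6.21 in the MDP pools, and C5ar1, the complement C5a receptor, at 12.11, 12.39 and 12.32 in granulocytes and 5.23, 3.81 and 7.62 in MDPs. MDP pool 3 was the highest MDP pool in both, and without it the differences of 7.23 and 6.72 were 8.19 and 7.75. Cxcr2, the receptor of CXCL1 and CXCL2 that draws neutrophils out of marrow, was at 10.91, 11.27 and 11.28 in the granulocyte pools against 4.93, 5.09 and 5.23 in the MDP pools, and macrophages were at 4.67 ± 0.20. Ccr1 rose by 5.75, and Ltb4r1, the leukotriene B4 receptor, by 2.35. Ccr2, the receptor that guides monocytes out of marrow, moved the other way, at 4.23, 3.95 and 4.04 in granulocytes and 7.51, 7.21 and 8.13 in MDPs, and was at 10.12 ± 0.15 in macrophages. Cx3cr1, a receptor of monocytes and MDPs, was lower by 1.34 (adjusted p = 0.0064) and was not called without both granulocyte pool 1 and MDP pool 3, at -1.08 (adjusted p = 0.057). The groups did not overlap for any of the 7 genes. With both granulocyte pool 1 and MDP pool 3 left out, 1 member was called lower.

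Among integrin and adhesion genes 10 of 18 were higher and 2 lower (median 0.79). Macrophages were higher than MDPs in 11 and lower in 2, and granulocytes were higher than macrophages in 5 and lower in 6. Itgb2, the beta chain shared by the leukocyte integrins, was at 12.02, 11.91 and 11.85 in the granulocyte pools against 6.06, 5.77 and 8.90 in the MDP pools, and macrophages were at 11.65 ± 0.08, with no call against granulocytes (adjusted p = 0.79). Without MDP pool 3 the difference of 5.01 was 6.01. Itgb2l, a related beta chain, was at 11.17, 8.19 and 9.97 in granulocytes and 4.61, 4.89 and 5.38 in MDPs, and macrophages were at 5.03 ± 0.12. The falls were in Pecam1 (-2.79) and Itga6 (-1.99). Without both pools that stood apart the median of the list was 1.21.

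Pattern recognition receptors were higher for 18 of 23 genes and lower for 2 (median 2.89). Macrophages too were higher than MDPs in 19 and lower in 0. Granulocytes were higher than macrophages in 9 and lower in 8. Clec4d, a C-type lectin for fungal and mycobacterial ligands, was at 12.17, 12.53 and 12.16 in the granulocyte pools against 6.45, 5.81 and 6.63 in the MDP pools, its partner Clec4e rose by 4.17, and Clec4n, which encodes dectin-2, by 4.35. Tlr4 rose by 4.0, Tlr6 by 3.62 and Tlr2 by 2.89, and the endosomal receptors Tlr3, Tlr7 and Tlr9 had differences of 0.63, 0.44 and 0.05 that were not called. Without granulocyte pool 1 Tlr3 differed by 1.05 (adjusted p = 0.0042) and without granulocyte pool 2 Tlr7 by 0.71 (adjusted p = 0.030). Ly86, which encodes MD-1, the partner of the TLR4-like protein CD180, was at 5.15, 6.14 and 6.04 in granulocytes and 10.27, 9.88 and 10.09 in MDPs, and Cd180 itself fell by 2.41. Macrophages were at 10.75 ± 0.19 in Ly86 and 7.68 ± 0.35 in Cd180.

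Of 13 Fc and complement receptor genes 8 were higher and 1 lower (median 0.86). Macrophages were higher than MDPs in 9 and lower in 0, and granulocytes were higher than macrophages in 1 and lower in 4. Fcgr4, an activating IgG receptor, was at 10.10, 10.17 and 9.74 in the granulocyte pools against 5.08, 4.35 and 5.76 in the MDP pools, and Pirb, an inhibitory receptor for class I molecules, rose by 5.98. Fcgr1, the high-affinity IgG receptor of macrophages, was at 3.71, 4.95 and 4.30 in granulocytes and 3.88, 4.13 and 5.79 in MDPs against 9.78 ± 0.12 in macrophages, from which granulocytes differed (adjusted p = 4.4e-07). Cd93 fell by 3.51. The lower members numbered 2 without MDP pool 2, and the median was 1.31 without both pools that stood apart. Of 7 genes of the NADPH oxidase 5 were higher and 0 lower (median 1.36). Cybb, its catalytic membrane subunit, was at 11.71, 9.25 and 10.29 in the granulocyte pools against 7.04, 6.54 and 9.39 in the MDP pools, with the groups overlapping between MDP pool 3 and the lowest granulocyte pool. It differed by 2.76, and by 3.63 without MDP pool 3. Its membrane partner Cyba rose by 1.36, the cytosolic subunit Ncf4 by 2.04 and the GTPase Rac2 by 2.21, while the proton channel gene Hvcn1 differed by 0.36 and was not called. Of the 7 oxidase genes, macrophages were higher than MDPs in 5 and lower in 1. Granulocytes were higher than macrophages in 3 and lower in 2.

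Genes of the interleukin 1 family and the inflammasome were higher for 9 and lower for 2 of 14 (median 3.16). Il1r2, the decoy receptor that binds interleukin 1 without signalling, was at 10.35, 10.20 and 10.17 in granulocytes and 2.50, 2.54 and 2.98 in MDPs. Il1rn, the receptor antagonist, was at 9.09, 9.23 and 8.90 in the granulocyte pools against 3.14, 3.30 and 3.39 in the MDP pools. Il1f9, an interleukin 36 ligand, was at 10.81, 10.94 and 10.09 in granulocytes and 3.29, 3.08 and 3.53 in MDPs, and macrophages were at 3.41 ± 0.44. The ligand Il1b and both of its natural inhibitors were thus high in every granulocyte pool. Il1a stayed at the bottom of the array, at 2.55, 2.54 and 2.77 in the granulocyte pools against 2.74, 2.74 and 2.59 in the MDP pools. Nlrp3, the sensor of the inflammasome, rose by 3.12, Casp1 differed by 0.28 without a call (adjusted p = 0.23), and Pycard, the adaptor ASC, fell by 1.72. The signalling receptor Il1r1 fell by 1.29 (adjusted p = 0.0097), and without MDP pool 2 the difference was -0.91 (adjusted p = 0.0522).

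Other cytokine and chemokine ligands were higher for 11 and lower for 3 of 18 (median 1.15). Tnfsf14, the ligand LIGHT, was at 9.44, 9.79 and 9.54 in granulocytes and 5.69, 5.92 and 5.79 in MDPs. Csf1, the ligand of the receptor used for the gates, was at 8.16, 9.56 and 8.50 in the granulocyte pools against 4.96, 5.25 and 4.95 in the MDP pools, and macrophages were at 5.23 ± 0.21. Ccl6 rose by 3.70 while the neighbouring chemokine gene Ccl9 was lower by 2.99 (adjusted p = 1.1e-05). Il6, Il10 and Ccl2 were at 2.45, 2.72 and 3.73 on average in granulocytes and none was called against MDPs. In the eicosanoid list 7 of 12 genes were higher and 0 lower (median 1.04). Alox5, the first enzyme of leukotriene synthesis, was at 8.65, 8.45 and 8.29 in granulocytes and 4.05, 4.47 and 4.97 in MDPs. Alox15 was at 7.52, 9.10 and 9.75 in the granulocyte pools against 3.43, 3.37 and 9.24 in the MDP pools, so that MDP pool 3 lay above granulocyte pools 1 and 2, and its call (adjusted p = 0.021) was lost without granulocyte pool 2 or 3 and without MDP pool 1 or 2 (adjusted p = 0.060, 0.077, 0.10 and 0.099). Without MDP pool 3 the difference was 5.39 (adjusted p = 8.3e-07). Without both pools that stood apart the median of the list was 1.75. Ptgs2, the inducible cyclooxygenase, rose by 2.07, from a level of 2.72 in MDPs.

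Receptors for cytokines and growth factors were higher for 11 and lower for 4 of 19 (median 0.93). Macrophages were higher than MDPs in 12 and lower in 1, and granulocytes were higher than macrophages in 3 and lower in 8. Csf3r, the receptor of granulocyte colony-stimulating factor, was at 11.22, 11.83 and 11.25 in granulocytes and 6.52, 7.44 and 7.08 in MDPs. Flt3, the progenitor receptor that dendritic cell development needs, was at 2.82, 4.71 and 3.97 in the granulocyte pools against 8.20, 8.51 and 8.26 in the MDP pools, and macrophages were still at 7.45 ± 0.42. Il6st, the signalling chain shared by receptors of the interleukin 6 family, was at 5.37, 5.28 and 5.03 in granulocytes and 9.75, 10.01 and 9.61 in MDPs, whereas the ligand-binding chain Il6ra rose by 1.03. The groups were apart for all 4 genes.

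Transcription factors moved both ways: 24 of 51 were higher and 11 lower (median 0.60), where 22.0% of all genes were higher and 23.1% lower. The share of listed factors that fell was thus near that of all genes. Irf8, which directs MDPs toward monocytes and dendritic cells and restrains neutrophil output, was at 6.04, 5.36 and 7.70 in the granulocyte pools against 10.27, 10.56 and 10.19 in the MDP pools, a difference of -3.97 (SE 0.42, adjusted p = 2.2e-06). Macrophages kept it at 9.17 ± 0.27. Myc, which drives growth and division, was at 5.11, 5.17 and 4.95 in granulocytes and 10.20, 10.44 and 10.11 in MDPs, 36.0-fold lower (adjusted p = 2.3e-11), and Myb, needed by dividing progenitors, at 4.84, 3.34 and 4.13 in the granulocyte pools against 8.52, 8.81 and 8.71 in the MDP pools. Tcf4, the factor of plasmacytoid dendritic cells, fell by 3.05, and Klf4, a monocyte factor, by 2.51, against 9.89 ± 0.26 in macrophages.

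The C/EBP family did not move as a block. Cebpa, the factor of the step from progenitor to myeloblast, was at 6.46, 7.17 and 7.12 in granulocytes and 8.88, 7.72 and 8.50 in MDPs and fell by 1.45 (adjusted p = 0.0012). Cebpb, linked to emergency granulopoiesis, was at 10.75, 11.55 and 10.88 in the granulocyte pools against 7.84, 7.42 and 8.98 in the MDP pools and Cebpd at 10.23, 10.26 and 9.86 in granulocytes and 6.70, 6.83 and 7.28 in MDPs, higher by 2.98 and 3.18. Spi1, the gene of PU.1, rose by 1.81 (adjusted p = 4.0e-07). Gfi1, a repressor of monocyte genes in neutrophil precursors, was at 8.38, 6.57 and 7.49 in the granulocyte pools against 7.65, 8.05 and 8.67 in the MDP pools and was not called (adjusted p = 0.22), but it passed the test without granulocyte pool 1, at -1.09 (adjusted p = 0.030). It was 3.76 higher in granulocytes than in macrophages (adjusted p = 6.0e-06). Within the list the largest rises were in Bcl6, a repressor, at 9.99, 10.27 and 10.44 in granulocytes and 5.71, 5.20 and 6.33 in MDPs, and in the Krüppel-like factors Klf3 (3.71) and Klf2 (3.46). Of the factors named in this paragraph, Bcl6, Klf2, Klf3 and Cebpb were also higher in macrophages than in MDPs, and granulocytes were not called against macrophages in them (adjusted p = 0.11, 0.10, 0.14 and 0.76).

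**Figure D3:**
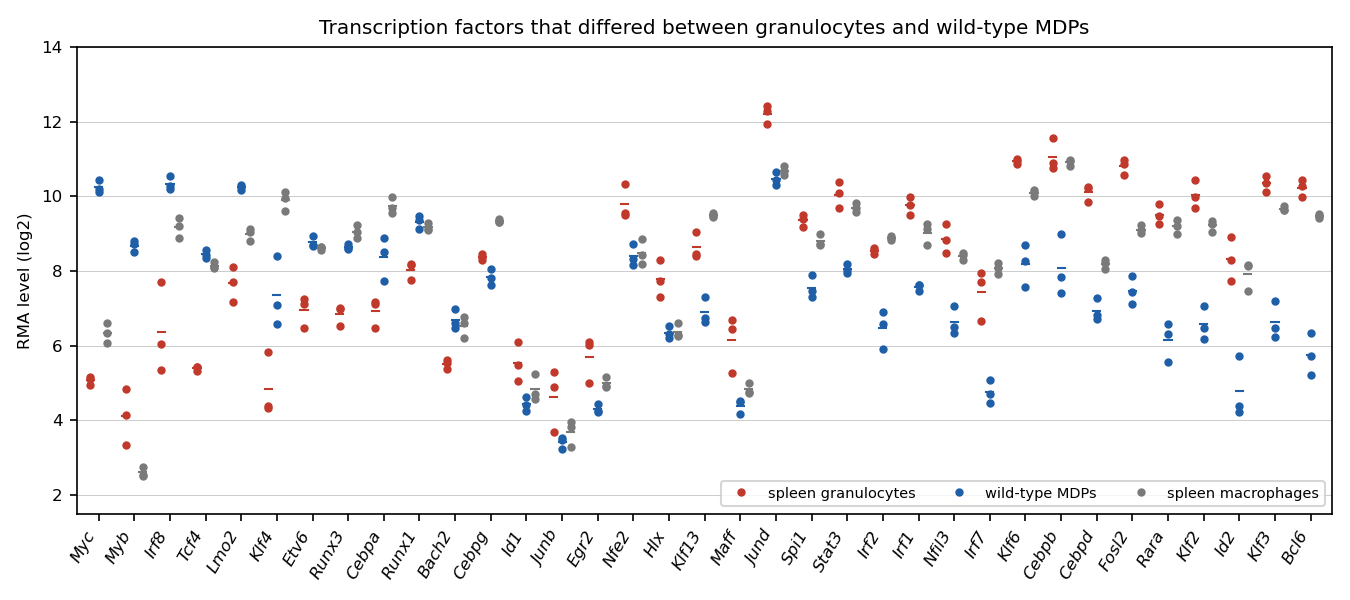
RMA level (log2, y axis) in each pool of the 35 listed transcription factors that differed between granulocytes and MDPs (x axis, ordered from the largest fall to the largest rise), with macrophages beside them. Bars are group means. Myc lies at 5.08 in granulocytes against 10.25 in MDPs and Bcl6 at 10.23 against 5.75.

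Genes of stem and early progenitor cells were lower for 14 and higher for 2 of 24 (median -1.0). Cd34, a surface marker of progenitors, was at 3.47, 3.30 and 3.17 in the granulocyte pools against 9.78, 9.89 and 9.25 in the MDP pools, and macrophages were at 2.93 ± 0.13. Sox4 was at 4.23, 4.01 and 4.02 in granulocytes and 9.48, 8.85 and 9.15 in MDPs, and Cd27 at 3.89, 5.13 and 3.65 in the granulocyte pools against 9.32, 9.25 and 9.11 in the MDP pools. Granulocyte levels of these 3 genes lay below the array medians of 4.33 to 4.48, except for Cd27 in granulocyte pool 2. The 2 members that rose, Prom1 (CD133) and Dach1, did not follow the name of the list. Prom1 was at 9.61, 6.74 and 8.10 in granulocytes and 2.97, 3.54 and 6.91 in MDPs, with the groups overlapping between MDP pool 3 and granulocyte pool 2. It rose by 3.68, and by 4.90 without MDP pool 3. Dach1 rose by 2.86. Erg, an ETS factor of stem cells, was at 9.28, 6.70 and 8.40 in the granulocyte pools against 8.89, 9.03 and 8.66 in the MDP pools and was not called, but without granulocyte pool 1 it was, at -1.31 (adjusted p = 0.011). It was 4.12 higher in granulocytes than in macrophages (adjusted p = 6.3e-06).

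Genes of DNA replication were lower in granulocytes for 41 of 42 members and higher for 0, with a median difference of -2.55, against 23.1% of all genes lower. Mcm2, a subunit of the replicative helicase, was at 5.63, 4.04 and 5.45 in granulocytes and 9.23, 8.87 and 9.16 in MDPs, 16.5-fold lower (adjusted p = 1.7e-07). Gins1, of the same helicase complex, was at 5.55, 4.26 and 4.40 in the granulocyte pools against 9.03, 9.33 and 9.50 in the MDP pools. Cdt1, which loads the helicase, was at 7.68, 5.68 and 6.79 in granulocytes and 10.47, 10.53 and 10.45 in MDPs, and another of its probe sets differed by up to 0.42. Pold2, a subunit of DNA polymerase delta, was at 3.27, 2.54 and 3.22 in the granulocyte pools against 7.19, 6.71 and 6.93 in the MDP pools. Every granulocyte pool lay below every MDP pool in these genes. Macrophages were also low, and between the mature cell types 6 members were higher and 3 lower in granulocytes, where 12.8% and 18.4% of all genes were. The only member with no call against MDPs was Orc1, of the origin recognition complex, at -0.10.

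Mitosis genes were lower for 28 of 34 (median -1.81) but varied between granulocyte pools. The mean level of the list was 7.47, 5.17 and 6.09 in the granulocyte pools, 7.96, 7.82 and 8.28 in the MDP pools and 5.29, 4.48 and 5.46 in the macrophage pools. Granulocyte pool 1 was thus closest to the MDPs. Without it 33 members were called lower, and without granulocyte pool 2 16 were. The count also depended on the other arrays in the fit. With the 6 compared arrays alone 15 members were called lower, and 20 with the pool number added as a replicate block. Ccna2, cyclin A2, was at 9.09, 6.73 and 7.18 in granulocytes and 10.02, 9.94 and 10.51 in MDPs, Mad2l1, of the spindle checkpoint, at 6.91, 5.10 and 5.85 in the granulocyte pools against 8.48, 8.61 and 9.14 in the MDP pools, and Ncapd2, of condensin, at 7.35, 5.41 and 5.15 in granulocytes and 9.13, 9.11 and 9.37 in MDPs. Mki67, the gene of the proliferation antigen Ki-67, was at 11.51, 9.36 and 10.90 in the granulocyte pools against 11.16, 11.25 and 11.19 in the MDP pools. Its groups overlapped, the difference of -0.61 was not called (adjusted p = 0.33), and it was 1.94 higher than in macrophages (adjusted p = 0.0072). In the whole list 15 members were higher and 0 lower in granulocytes than in macrophages, where 12.8% and 18.4% of all genes were. The same order of pools held for primary granule genes, whose mean was 8.24, 6.95 and 7.96 in granulocyte pools 1 to 3, and for DNA replication genes, at 6.58, 5.37 and 5.85. Whether the pools differed in the maturity of their cells was not tested.

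**Figure D4:**
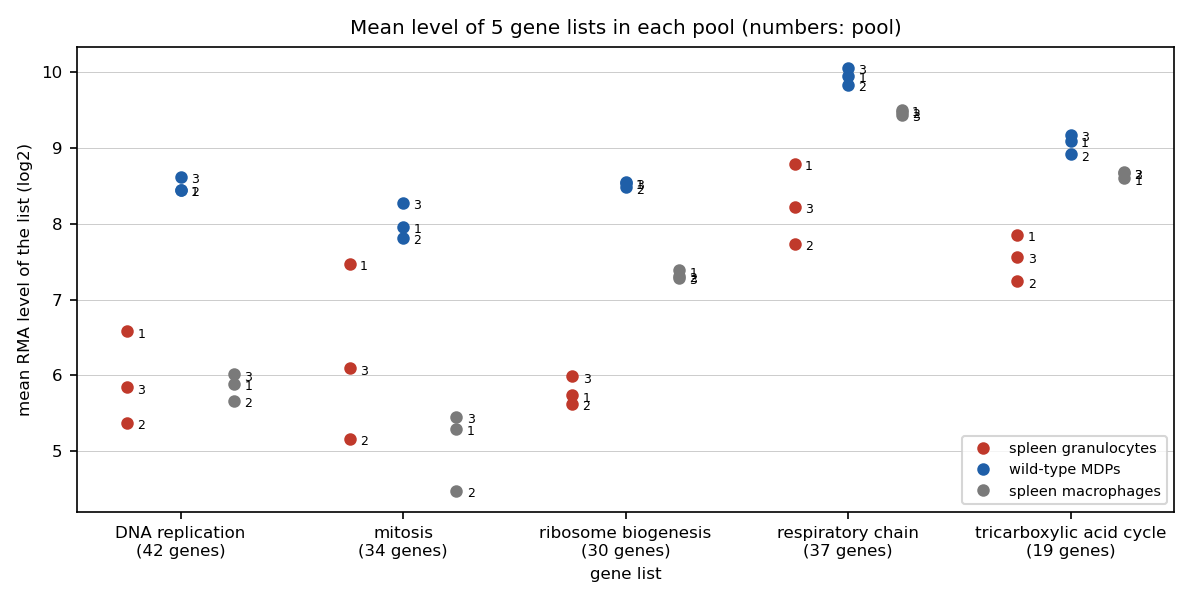
Mean RMA level (log2, y axis) of 5 gene lists (x axis) in each pool, with the pool number beside the point. In the mitosis list granulocyte pool 1 (7.47) lies near the MDP pools (7.82 to 8.28) and pool 2 (5.17) near the macrophages, while in the ribosome biogenesis list all granulocyte pools lie below all macrophage pools.

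Promoters of these genes are shown because most members of both lists were called lower. The E2F motifs TTTGGCGC and TTTCCCGC, read by factors of the G1 to S step, were in 13.95% of 43 DNA replication promoters, 6.452% of 31 mitosis promoters and 1.881% of all promoters, in the window and strands given above. The cell cycle homology region TTTGAA was in 48.39% of mitosis, 13.95% of DNA replication and 11.87% of all promoters, and CCAAT in 80.65%, 60.47% and 34.89%. TTTGAA and CCAAT matches overlapped in 16 promoters and E2F and CCAAT matches in 2. E2F motifs were in 3.472% of promoters of genes called lower and 0.9098% of those called higher. The share was 11.19% and 11.59% for TTTGAA and 37.35% and 32.31% for CCAAT, so that TTTGAA was about as frequent in both. In the stretches of 60 bases below, 5′ to 3′ on the strand of the gene (GRCm38.p6), capitals mark the E2F match in the first 4, of DNA replication genes, and the TTTGAA match in the last 3, of mitosis genes.
Mcm6 (chr1:128359719-128359778, minus strand): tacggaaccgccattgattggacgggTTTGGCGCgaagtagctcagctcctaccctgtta
Mcm5 (chr8:75109334-75109393, plus strand): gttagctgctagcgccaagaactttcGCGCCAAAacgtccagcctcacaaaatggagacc
Cdc6 (chr11:98907987-98908046, plus strand): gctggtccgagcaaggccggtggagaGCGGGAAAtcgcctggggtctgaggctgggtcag
Pola1 (chrX:93632260-93632319, minus strand): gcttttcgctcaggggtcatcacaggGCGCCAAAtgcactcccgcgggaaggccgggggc
Ncapd2 (chr6:125191676-125191735, minus strand): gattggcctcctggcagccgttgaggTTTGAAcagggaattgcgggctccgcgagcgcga
Cdk1 (chr10:69352913-69352972, minus strand): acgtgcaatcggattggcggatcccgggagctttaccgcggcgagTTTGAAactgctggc
Kif11 (chr19:37376322-37376381, plus strand): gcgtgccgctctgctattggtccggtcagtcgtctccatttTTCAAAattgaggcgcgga

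The genes of these stretches were lower by 3.44 (Mcm6), 2.95 (Mcm5), 2.98 (Cdc6), 3.33 (Pola1), 3.23 (Ncapd2), 1.87 (Cdk1) and 2.03 (Kif11) log2 units, and Kif11 by 1.26 without granulocyte pool 2. They are a selection. TTTGAA was also in promoters of mitosis genes with smaller differences, such as Cdc20 (-0.95), Kif15 (-0.79) and Mki67 (-0.61). E2F motifs were also in those of the DNA replication genes Mcm7 (-2.38) and Gins3 (-1.19). Cdk1, the kinase that drives mitosis, was at 7.82, 5.54 and 5.77 in granulocytes and 8.34, 7.80 and 8.60 in MDPs, so that its groups overlapped in granulocyte pool 1, and it was called at adjusted p = 0.0066.

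Cell cycle entry genes and inhibitors divided: 8 were higher and 10 lower of 25 (median -0.26), against 22.0% and 23.1% of all genes. Cdk4, a kinase of the G1 phase, was at 5.09, 6.03 and 5.05 in the granulocyte pools against 10.36, 10.32 and 10.32 in the MDP pools, and Cdk6, its partner kinase, at 6.53, 5.51 and 4.76 in granulocytes and 10.31, 10.62 and 10.06 in MDPs. The risen members included the inhibitors Cdkn1b (2.02) and Cdkn2d (2.30) and the antiproliferative genes Btg1 (3.31) and Tob1 (3.57). Cdkn1a, the p53 target p21, went the other way with -1.15 (adjusted p = 0.0044).

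Ribosome biogenesis genes were lower for 29 of 30 (median -2.87), the lowest median of the 27 lists plotted. Nop58, a core protein of box C/D snoRNPs, was at 4.46, 4.11 and 4.67 in the granulocyte pools against 9.46, 9.37 and 9.49 in the MDP pools, 32.6-fold lower (adjusted p = 9.2e-11), with macrophages between at 6.65 ± 0.16. Wdr12, needed for the large subunit, was at 4.47, 4.49 and 4.27 in granulocytes and 9.30, 9.27 and 9.36 in MDPs, and Nhp2, of box H/ACA snoRNPs, at 5.83, 4.45 and 5.51 in the granulocyte pools against 9.88, 9.95 and 9.97 in the MDP pools. Ubtf, a factor of RNA polymerase I, was the member not called (0.04). Against macrophages 23 members were lower and 1 higher in granulocytes (median -1.93). Every granulocyte pool thus had a lower list mean than every macrophage pool, at 5.74, 5.62 and 5.99 against 7.38, 7.31 and 7.28.

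Mitochondrial genes were lower too. In the respiratory chain 35 of 37 members were lower and 0 higher (median -1.73), and in the tricarboxylic acid cycle 13 of 19 were lower and 0 higher (median -1.76). Atp5g1, a ring subunit of ATP synthase, was at 6.89, 5.86 and 6.47 in granulocytes and 9.89, 9.41 and 9.59 in MDPs. Ndufa10, of complex I, was at 7.39, 5.30 and 6.07 in the granulocyte pools against 8.79, 9.34 and 9.34 in the MDP pools, and Suclg2, of succinyl-CoA synthetase, at 3.91, 3.19 and 3.76 in granulocytes and 7.60, 7.56 and 7.68 in MDPs. Fh1, fumarase, fell by 3.44, and Dlat, of the pyruvate dehydrogenase complex, by 2.71. Granulocytes were lower than macrophages in 32 members of the respiratory chain and 14 of the tricarboxylic acid cycle. Dlst, of the oxoglutarate dehydrogenase complex, was higher than in MDPs at an unadjusted p of 0.036 but was not called (limma, adjusted p = 0.073). Without granulocyte pool 2 it was, at 0.85 (adjusted p = 0.0090). In every other list with 0 members called on a side against MDPs, limma also gave 0 members on that side at an unadjusted p under 0.05.

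Glycolysis and glycogen genes were higher for 9 and lower for 3 of 24 (median 0.47). The largest rises were in transporters, glycogen breakdown and a regulator. Slc2a3, the glucose transporter GLUT3, was at 11.29, 11.06 and 11.10 in the granulocyte pools against 6.65, 7.34 and 7.72 in the MDP pools, while macrophages, at 5.06 ± 0.20, were lower than the MDPs (adjusted p = 0.0010). Slc16a3, which exports lactate, was at 9.73, 10.23 and 9.97 in granulocytes and 5.67, 4.71 and 6.0 in MDPs. The other glucose transporter Slc2a1 rose by 3.06. Pygl, which releases glucose from glycogen, rose by 4.09, and Pfkfb4, which sets the level of the activator of phosphofructokinase, by 4.08. Enzymes of the core pathway moved less, with rises of 0.85 for Pkm and 0.67 for Aldoa, a fall of 1.53 for Tpi1, and differences of -0.01 for Gapdh, -0.28 for Ldha and -0.42 for Pgk1 that were not called. Without granulocyte pool 1 Ldha and Pgk1 were called too, at -0.50 (adjusted p = 0.013) and -0.55 (adjusted p = 0.043). Leaving out granulocyte pool 1 gave 6 members lower in place of 3 and a median of 0.13.

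In the list of nuclear envelope and chromatin genes 13 of 23 were lower and 8 higher (median -1.02). Hmgn1, a nucleosome-binding protein, was at 6.85, 7.65 and 8.16 in the granulocyte pools against 11.78, 11.81 and 11.76 in the MDP pools, although another of its probe sets differed by up to 0.31. Dnmt3b, a de novo DNA methyltransferase, was at 4.19, 3.91 and 4.09 in granulocytes and 8.03, 8.03 and 7.70 in MDPs. Cbx5, which encodes heterochromatin protein HP1 alpha, fell by 3.10. Syne1, which ties the nucleus to the cytoskeleton, rose by 3.46, and Lbr, the lamin B receptor needed for lobed neutrophil nuclei, by 1.17 (adjusted p = 1.7e-04). The median of the list was -0.62 without granulocyte pool 2.

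Of 14 BCL2 family genes 5 were higher and 3 lower (median 0.27), where 22.0% of all genes were higher and 23.1% lower. The share that fell was near that of all genes. Bcl2 was at 7.32, 7.08 and 8.21 in the granulocyte pools against 11.03, 11.23 and 10.65 in the MDP pools, and Mcl1, on which neutrophil survival depends, at 11.09, 11.55 and 11.60 in granulocytes and 8.95, 8.77 and 8.92 in MDPs. The 2 survival genes thus moved in opposite directions. Among death-promoting members Pmaip1 (NOXA) rose by 2.92, Bcl2l11 (BIM) by 1.56, and Bak1 fell by 1.98. The median of the list was 0.45 without MDP pool 2 and 0.18 without both pools that stood apart. The lower members numbered 2 without granulocyte pool 2 or 3 or MDP pool 1 or 3.

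Interferon-stimulated genes were higher for 21 and lower for 1 of 25 (median 2.82). Rtp4 was at 9.99, 10.65 and 10.07 in the granulocyte pools against 4.82, 3.77 and 5.26 in the MDP pools, Oasl2, of the oligoadenylate synthetase family, at 10.41, 10.90 and 10.78 in granulocytes and 5.11, 4.62 and 5.90 in MDPs, and Rsad2, the antiviral protein viperin, at 10.63, 11.20 and 10.93 in the granulocyte pools against 5.50, 4.92 and 7.23 in the MDP pools. Macrophages were also above MDPs in these 3, at 9.18 ± 0.25, 9.50 ± 0.26 and 8.97 ± 0.48. Mx1 and Mx2 were not called, at differences of 0.09 and 0.16, and Gbp3 fell by 2.11. Relative to macrophages 8 members were higher and 8 lower, where 12.8% and 18.4% of all genes were.

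Immediate early and stress genes were higher for 5 and lower for 6 of 14 (median 0.39), against 22.0% and 23.1% of all genes. Ier3 was at 8.89, 8.93 and 8.41 in granulocytes and 5.07, 5.05 and 5.22 in MDPs, Atf3, a stress-induced factor, rose by 3.47, and Dusp1, a phosphatase of MAP kinases, by 3.34. The chaperone Hsph1 was at 5.28, 5.49 and 6.02 in the granulocyte pools against 9.71, 9.70 and 9.76 in the MDP pools. Fos and Egr1, which cell handling can induce, differed by 1.07 and 1.46 and were not called, although Egr1 passed the test without granulocyte pool 1, at 2.41 (adjusted p = 0.0035). With both MDP pool 3 and granulocyte pool 1 left out, the members called lower numbered 3 in place of 6 and the median was 0.61. Without granulocyte pool 3 the median was 0.16, and over all probe sets it was -0.91 with 10 probe sets lower.

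MHC class II genes were 4 higher and 5 lower of 12 (median -0.58), where 22.0% of all genes were higher and 23.1% lower. Cd74, the invariant chain, was at 8.30, 9.68 and 9.73 in granulocytes and 4.52, 4.39 and 7.99 in MDPs, with granulocyte pool 1 the lowest of its group and MDP pool 3 the highest of the MDPs. Its difference of 3.61 was 4.79 without MDP pool 3. H2-Aa, an alpha chain, rose by 2.37, and H2-Eb1, a beta chain, by 2.36. H2-DMa, which loads peptides, moved the other way, at 4.76, 5.02 and 4.33 in the granulocyte pools against 8.55, 8.59 and 8.55 in the MDP pools. Macrophages were far higher, at 12.23 ± 0.10 for Cd74 and 9.50 ± 0.23 for H2-DMa, and all 12 members were lower in granulocytes than in macrophages. Without MDP pool 3 the number lower than in MDPs was 3 and the median -0.09, and without it and granulocyte pool 1 it was 2 and the median 0.04.

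The cell type labels were set against marker lists. All 10 measured neutrophil markers were higher in the granulocytes (median 6.13), with a mean level of 11.87 to 12.08 in granulocyte pools, 4.73, 4.52 and 7.82 in MDP pools 1 to 3, and 6.10 to 7.39 in macrophage pools. Ly6g and Retnlg, defining neutrophil genes, were not matched to a probe set here. Of the 10 MDP and progenitor markers 9 were lower and 0 higher (median -3.60), with a mean level of 5.32 to 6.16 in granulocytes and 8.96 to 9.26 in MDPs. Nearly all members of both lists thus lay on the side of their label. The lists were chosen with earlier results of these data known, so they are no independent check of the labels. The MDP list holds the gate genes Kit and Csf1r, and its member not called was Csf1r. It also shares Mpo, Elane and Ms4a3 with the primary granule list. MDP pool 3 also held neutrophil transcripts.

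Markers of natural killer cells were higher for 12 of 16 genes and lower for 0 (median 1.86). Gzma, granzyme A, was at 10.51, 10.50 and 11.61 in granulocytes and 2.99, 2.72 and 7.41 in MDPs, Ccl5 at 9.62, 9.61 and 10.65 in the granulocyte pools against 4.90, 4.76 and 7.97 in the MDP pools, and the NK receptor Klra8 at 6.15, 6.75 and 8.55 in granulocytes and 2.07, 2.31 and 4.34 in MDPs. Tbx21, the factor T-bet, was at 5.68, 6.16 and 8.23 in the granulocyte pools against 2.83, 2.77 and 3.81 in the MDP pools, and Ncr1, the NK-defining receptor NKp46, at 5.22, 5.23 and 5.92 in granulocytes and 3.27, 3.08 and 3.66 in MDPs. MDP pool 3 was the highest MDP pool in each of these 5, and without it the differences of Gzma and Ccl5 grew from 6.50 and 4.09 to 8.02 and 5.13. The log2 of the summed level of the list was 11.66 to 12.71 in granulocytes, 8.78 to 10.21 in MDPs and 9.09 to 9.34 in macrophages. Granulocyte pool 3 was the highest in all 4 of Gzma, Ccl5, Klra8 and Tbx21. The labels name no antibody against NK cells for the granulocyte gate, and the part of such cells in the results on cytotoxic, chemokine and interferon genes above was not tested.

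T cell markers were higher for 2 and lower for 0 of 12 (median 0.29, summed level 7.86 to 8.16 in granulocytes and 7.57 to 8.09 in MDPs). Their calls changed with single pools, from 0 to 4 when a pool was left out. The defining Cd3e stood at 4.03, 4.54 and 4.12 in the granulocyte pools against 3.61, 3.48 and 5.30 in the MDP pools and was not called, whereas without MDP pool 3 it was, at 0.69 (adjusted p = 0.0048). Of 13 B and plasma cell markers 7 were higher and 1 lower (median 0.48, summed level 9.61 to 10.20 and 8.16 to 9.59). Jchain, the joining chain of secreted antibodies, was at 9.08, 9.42 and 9.68 in granulocytes and 3.12, 3.10 and 8.78 in MDPs. MDP pool 3 thus came close to the granulocyte level of Jchain, and without it the difference of 4.39 was 6.28. The B cell genes Ms4a1 and Cd79a were at 3.44 and 5.43 in granulocytes. Cd79a and Cd79b, chains of the B cell receptor complex, went opposite ways, with differences of 1.24 and -1.67 (limma, adjusted p = 0.0018 and 3.4e-04). Bank1 rose by 1.94.

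Of 12 eosinophil, basophil and mast cell markers 5 were higher and 1 lower (median -0.41). The median depended on the MDP pools: it was -0.90 without pool 1, -0.72 without pool 2 and 0.37 without pool 3, with 2, 3 and 1 members lower, and -0.19 without granulocyte pool 3. Siglecf, a defining surface gene of eosinophils, was at 7.17, 8.42 and 8.49 in the granulocyte pools against 4.74, 4.53 and 6.06 in the MDP pools, and Ccr3, their eotaxin receptor, at 4.72, 6.71 and 6.86 in granulocytes and 3.70, 3.98 and 4.98 in MDPs, with macrophages at 3.55 ± 0.13 and 3.74 ± 0.46. Granulocyte pool 1 was the lowest of its group in both. The eosinophil granule gene Epx was at 4.28, 4.66 and 4.51 in the granulocyte pools against 4.49, 4.40 and 8.71 in the MDP pools, and Prg2, the gene of major basic protein, at 5.09, 6.46 and 4.82 in granulocytes and 4.47, 3.95 and 10.26 in MDPs. In both the highest level was that of MDP pool 3. Without it the difference of Prg2 turned from -0.77 (adjusted p = 0.61) to 1.25 (adjusted p = 0.022). That of Epx was -1.39 (adjusted p = 0.16), became 0.03 (adjusted p = 0.89) without MDP pool 3 and was -2.12 (adjusted p = 0.040) without MDP pool 2. The summed level of the list was 8.88 to 9.81 in granulocytes, 8.20 to 11.27 in MDPs and 7.65 to 7.76 in macrophages. The term granulocyte covers eosinophils, and their part in Alox15 and the other rises was not tested.

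Monocyte and macrophage markers were higher for 6 and lower for 5 of 22 against MDPs (median 0.38), while 16 were lower than in macrophages. Against MDPs both shares were near the 22.0% and 23.1% of all genes. The median was 0.13, 0.63 and 0.15 without MDP pool 2, MDP pool 3 and granulocyte pool 2. Leaving out MDP pool 3 gave 11 higher members, and MDP pool 1 gave 3. Ms4a6c fell by 4.58, while its other probe set differed by -0.11. Conventional dendritic cell markers were 3 higher and 5 lower of 12 (median 0.11), against the same shares of all genes. Of the 3 rises only that of Itgax kept its call when any 1 MDP pool or granulocyte pool 3 was left out. The members called lower numbered 4 without MDP pool 3 and 5 without MDP pool 1 or 2 or granulocyte pool 3. Without granulocyte pool 2 the median was -0.01. Dpp4 was lower by 4.02, with another probe set at 0.08. Plasmacytoid dendritic cell markers were 3 higher and 2 lower of 9 (median 0.05), where 22.0% of all genes were higher and 23.1% lower. Without MDP pool 3 the median was -0.09.

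Erythroid markers were lower for 6 and higher for 0 of 15 (median -1.52), and without MDP pool 3 the median was -0.42. Hba-a1, an alpha globin, was at 7.67, 6.94 and 8.02 in the granulocyte pools against 9.10, 8.06 and 12.34 in the MDP pools, with MDP pool 3 the highest. Its difference of -2.29 was called at adjusted p = 0.0498 and was -1.04 without that pool (adjusted p = 0.26). The call was also lost without MDP pool 1 or any 1 granulocyte pool. Car1, carbonic anhydrase 1, fell by 3.16, and Tfrc, the transferrin receptor of dividing and erythroid cells, by 2.99. Megakaryocyte and platelet markers were 1 higher and 1 lower of 10 (median -0.02), the lower being Pf4, at 2.70, 2.88 and 3.12 in granulocytes and 2.82, 5.46 and 8.40 in MDPs. Its difference of -2.66 (SE 0.86, adjusted p = 0.021) was -4.03 without MDP pool 1 and -1.24 (adjusted p = 0.062) without MDP pool 3. Its call was also lost without granulocyte pool 1 or 2 (adjusted p = 0.0507 and 0.0529). The median of the list ran from -0.22 without MDP pool 1 to 0.09 without MDP pool 3. Stroma and endothelium markers were 5 higher and 0 lower of 12 (median 0.33), none with a mean above 5.45 in granulocytes.

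**Figure D5:**
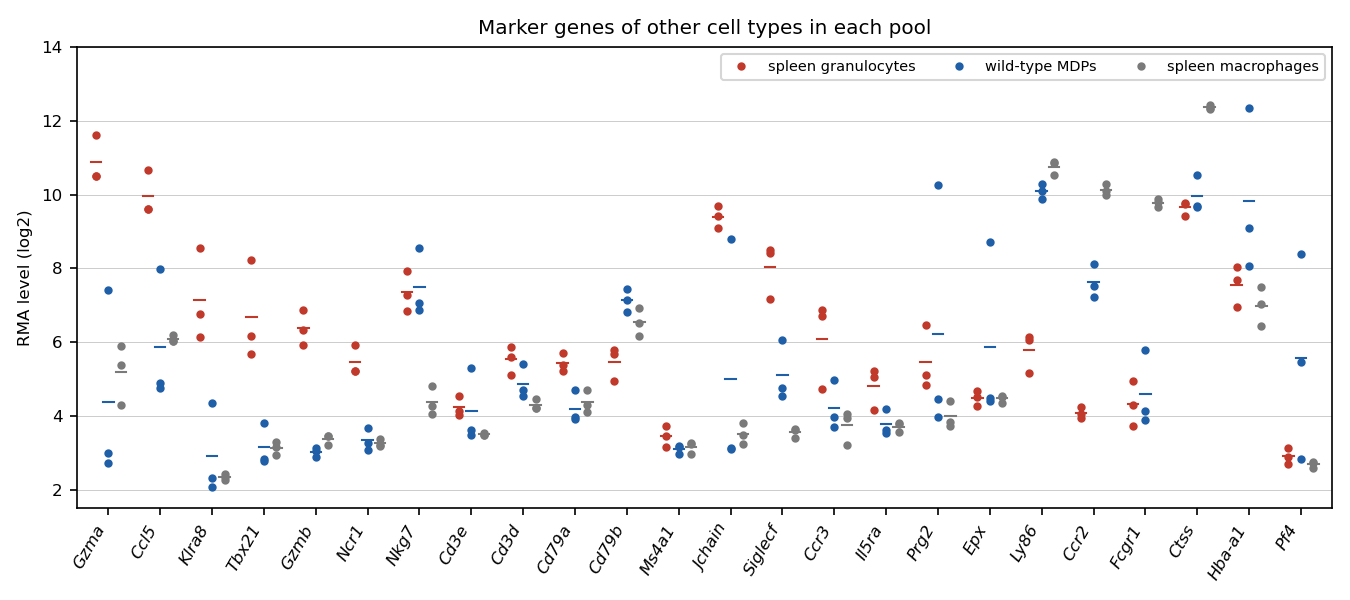
RMA level (log2, y axis) of marker genes of natural killer, T, B and plasma cells, eosinophils, monocytes and macrophages, erythroid cells and platelets (x axis) in each pool of granulocytes, MDPs and macrophages, with group means as bars. Gzma stands at 10.88 in granulocytes against 4.37 in MDPs on average, and the single high MDP points of Jchain, Prg2 and Hba-a1 are pool 3.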

How the data were processed

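Gene expression was measured on Affymetrix mouse arrays with perfect-match probes only, from biotin-labelled cRNA of sorted cells. The authors deposited 1 table of log2 values per probe set, made with Affymetrix Expression Console and RMA per the submitters' processing notes. Software versions, the probe annotation behind the values and the set of arrays normalised in 1 run were not stated in the sources used here. RMA shrinks differences near the background, so folds of dim genes are understated. Precision is limited by the number of arrays. Of 45037 probe sets, 28898 had 1 gene symbol in the platform annotation, 551 had several and 15588 had none. A gene was represented by its probe set with the highest mean over 17 arrays, which left 17097 genes.

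One linear model with 6 group means was fitted to the 17 arrays (limma 3.58.1 in R 4.3.3, empirical Bayes, 11 residual degrees of freedom), and p-values were adjusted over all genes by Benjamini-Hochberg. Since each array is a pool, these p-values reflect how much pools varied, not single mice. An exact permutation test of 3 pools against 3 cannot go below p = 0.10 and was not run. The script was tested on simulated data.

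The text names the gate genes, the 15 largest rises and the 15 largest falls without overlap (predicted and RIKEN genes only among the 5 largest), up to 4 called members of each list with the largest differences, the 3 markers of highest level of each marker list, and list members whose granulocyte pools spread over more than 4 log2 units. Other genes were added after their values were seen. The 41 lists (727 of 817 entries matched) and the genes were chosen with earlier results of these data known. Alternatives were each pool left out, the pool number as a replicate block, the 6 arrays alone, array weights, a level-dependent prior, quantile normalisation, median centring, a filter on dim genes, and other treatments of probe sets. A fit without granulocyte pool 1 and MDP pool 3 together was chosen after seeing the data. Promoter sequences are from RefSeq (GRCm38.p6).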

Additional observations from a re-analysis of the deposited data

How the results depend on the processing

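The counts of 3768 genes higher and 3952 lower in granulocytes stayed within 1.5 times under each alternative except these. Adding the pool number as a replicate block to a fit of the 6 arrays gave 2219 higher genes. Keeping genes above the median level gave 1888 higher and 3692 lower of 8548 tested. In that fit 33.84% of calls were higher, against 48.81% in the main fit. Testing all 28898 probe sets gave 5840 higher and 6203 lower. Both of these alternatives change what is counted. Leaving out 1 pool gave 3015 to 3962 higher and 3489 to 3965 lower. The pools share only a number: same-numbered pools of the 2 groups had residual correlations of -0.04, 0.13 and -0.05. The replicate block over all 17 arrays gave 3630 higher and 3950 lower, the 6 arrays alone 2668 and 3608, median centring 3057 and 4146, and quantile normalisation 3913 and 3512. The scalings moved the median of all genes from 0.10 to between 0.02 and 0.05. Among the 7720 called genes, quantile normalisation turned the sign of 4 and averaging probe sets that of 33. Of 159 called genes named by the rule, 143 kept their call in every fit over all genes. Granulocyte pools 1 and 2 had the lowest array weights of the groups compared (0.413 and 0.509). Levels near the lower quartile of the arrays (3.18 to 3.42) are close to background, where differences may be understated.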

Other observations

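Some genes moved in opposite directions in the 2 mature cell types relative to the same MDP arrays, which both comparisons share. Of all genes, 41 were higher in granulocytes and lower in macrophages than in MDPs, and 136 were lower in granulocytes and higher in macrophages. A gene entered a set only if it was called in both comparisons with MDPs and also between granulocytes and macrophages. Beside Hdc, Slc2a3 and Siglecf, the first set held Mrgpra2b, a receptor of the MRGPR family, at 10.01, 9.51 and 9.24 in the granulocyte pools against 4.73, 4.83 and 6.29 in the MDP pools, with macrophages at 3.46 ± 0.30 (mean ± SD, n = 3). Tmem40, a membrane protein, was at 10.09, 8.64 and 8.36 in granulocytes and 7.75, 6.41 and 7.52 in MDPs and at 4.38 ± 0.28 in macrophages. Ifitm1, of the interferon-induced transmembrane family, was at 11.91, 12.13 and 11.94 in the granulocyte pools against 9.35, 8.73 and 9.20 in the MDP pools and at 7.62 ± 0.69 in macrophages, and its probe set may read related family members. H2bc4, a histone H2B gene, was at 10.10, 10.97 and 10.45 in granulocytes and 8.58, 8.55 and 7.73 in MDPs against 6.19 ± 0.18 in macrophages. The direct granulocyte minus macrophage differences of these 4 genes were 6.13, 4.65, 4.38 and 4.32 (limma, adjusted p = 1.4e-07, 1.8e-06, 8.6e-08 and 7.2e-08). These genes were chosen after their values were seen, from those of the first set with the largest direct differences. Their direct differences and p-values were thus part of the choice and are no separate test.

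Probe sets of 1 gene could disagree. Of 7180 genes with several probe sets, 94 had some called higher and some called lower, and in 9 genes both differences were at least 1 log2 unit: Cd247, Dnpep, Eif3f, Lsm6, Papola, Plpp2, Smyd5, Tbc1d7 and Tmx3. For Cd247, the zeta chain of the T cell receptor, 1 probe set was at 7.46, 7.02 and 6.97 in granulocytes and 8.93, 8.66 and 8.17 in MDPs (difference -1.44, SE 0.28, adjusted p = 7.6e-04). Another was at 3.36, 4.31 and 5.01 in granulocytes and 3.12, 3.12 and 3.20 in MDPs (difference 1.08, SE 0.29, adjusted p = 0.0075). For Eif3f, a subunit of a translation initiation factor, 1 probe set was at 9.84, 9.68 and 10.22 in granulocytes and 11.14, 11.29 and 11.21 in MDPs (difference -1.30, SE 0.15, adjusted p = 6.5e-06). Another was at 10.54, 10.44 and 10.28 in granulocytes and 8.88, 8.55 and 9.22 in MDPs (difference 1.54, SE 0.23, adjusted p = 7.0e-05). Among genes described above, another probe set differed far less than the one used in Atp5g1 (-0.39 against -3.22), Cebpb (0.39 at most against 2.98), Tob1 (0.20 against 3.57), Itgb2l (0.47 at least against 4.82) and Cbx5 (-0.19 against -3.10). Which transcripts the probe sets read was not tested.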
